A study of Mus musculus with 54 samples.

Results

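Clone J is 1 of 23 populations that were each grown from a single sorted cell of 4T1, a mouse mammary carcinoma line that spreads from the mammary gland. Its members here are its 2 libraries, lettered A and B, out of 54 libraries in the series, and they were set against the 44 libraries of the other 22 clones. The labels call clone J non-intravasating, meaning that its cells were not among those found to enter the blood in a pooled assay. Of the other 22 clones, E and T are called intravasating and 20 carry the same call as J. All clones were grown in the same high-glucose medium with serum, and no genotype, agent or time point is given for any of them. A clone is 1 lineage, so what is particular to J describes a single sorted cell and its descendants. The remaining 8 libraries come from orthotopic tumors (Tumor_1, Tumor_2) and from metastases in the lung (Lung_1, Lung_2), and serve only for looking up levels.

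Single-cell cloning of a tumor line separates lineages that the bulk culture averages. Such lineages can differ in chromosome content, in epigenetic state and in their place between an epithelial state, held together by E-cadherin and claudin junctions, and a mesenchymal state marked by vimentin and the Zeb factors. MHC class I molecules carry peptides, cut by the immunoproteasome and pumped by the Tap transporter, to the surface of the cell, where T cells read them. Interferons raise the genes of this pathway.

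Library J_A had 8849257 recovered reads, the fewest of any clone library, and J_B had 13510399. The 44 other libraries had 11101603 to 31609870 reads, with a median of 16761420. A read was found for 14770 and 14907 genes in clone J, against 14130 to 16807 in the others. The 2 libraries of J correlated at r = 0.995 across genes, within the range of 0.990 to 0.997 of the other pairs. Whether letters A and B stand for separate cultures is not in the labels, so p-values that rest on libraries measure only the spread between these libraries, which may be technical. Of 9 markers of mammary epithelial cells, 8 were tested. Their summed normalized count was 68070 and 76301 in clone J, against 26083 to 105470 in the others, with a median of 51346. Krt8, a keratin of simple epithelia, had 7691 and 9314 normalized counts in clone J and a median of 9482 in the other clones, and Krt5 had no read in clone J. The defining markers of mammary epithelium other than Krt5 were thus detected. Of 10 macrophage markers, 6 had no read in J, among them C1qa and Fcgr1, and lymphocyte markers summed to 11.7 and 6.39 normalized counts, against 0.450 to 8.02 in the others.

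Clone J differed from its 22 peers in the test between clones at 99 of 13637 genes (0.726%), 53 higher and 46 lower. The 46 genes that fell include the basement membrane collagen gene Col4a5, the caveola gene Ptrf and the connexin gene Gjc1. Of the 46, 40 lie on chromosomes 11 and X, which hold 1120 and 425 of the 13637 genes tested. The 53 genes that rose include Slc35f1, a member of a nucleotide-sugar transporter family, and Epgn, a ligand of the EGF receptor. Of the 53, 15 lie on chromosome 5, which holds 850 of the genes tested. The test was limma with 1 value per clone, two-sided, at a Benjamini-Hochberg adjusted p of 0.05, and J as a lone clone was assumed to vary as the others do. It called 0.389% of the genes tested as higher and 0.337% as lower. In simulated data the test made a larger share of false calls than its cutoff allows, so some of these genes may be false calls. At an unadjusted p under 0.05 it found 1888 genes, or 13.8%. On the log2(normalized count + 1) scale the calls split as 25 higher and 69 lower. In library J_B alone, 51 genes were higher and 56 lower, and in J_A alone 174 and 113.

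Set against the spread between libraries of 1 clone, which is smaller than the spread between clones, clone J differed at far more genes. In a limma fit over the 46 clone libraries, 3683 genes (27%) were higher and 3960 (29%) lower than the mean of the others. Both libraries of J lay above all 44 others at 514 genes (3.77%) and below all of them at 549 (4.03%), and 96 of the 99 called genes were among these. With libraries recentred on their medians, that split was 688 above and 437 below. The centring moved the median difference of all genes by 0.0693 on the log2 scale. In the pairwise contrasts of that fit, 2896 genes (21.2%) were higher in J than in at least 11 of the 22 clones and 3052 (22.4%) were lower. The fewest genes differed from clone L, 4225, and from P, 4335, and the most from G, 8072, and S, 8420. The deviations of J from the mean over clones correlated with those of L at r = 0.608 and of P at r = 0.521, over 13637 genes. With E the value was -0.601, and all clones share the subtracted mean. Each other clone put through the same clone-level test gave between 0 and 730 called genes, with a median of 3.5, and J had more than any of them but G.

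**Figure D1:**
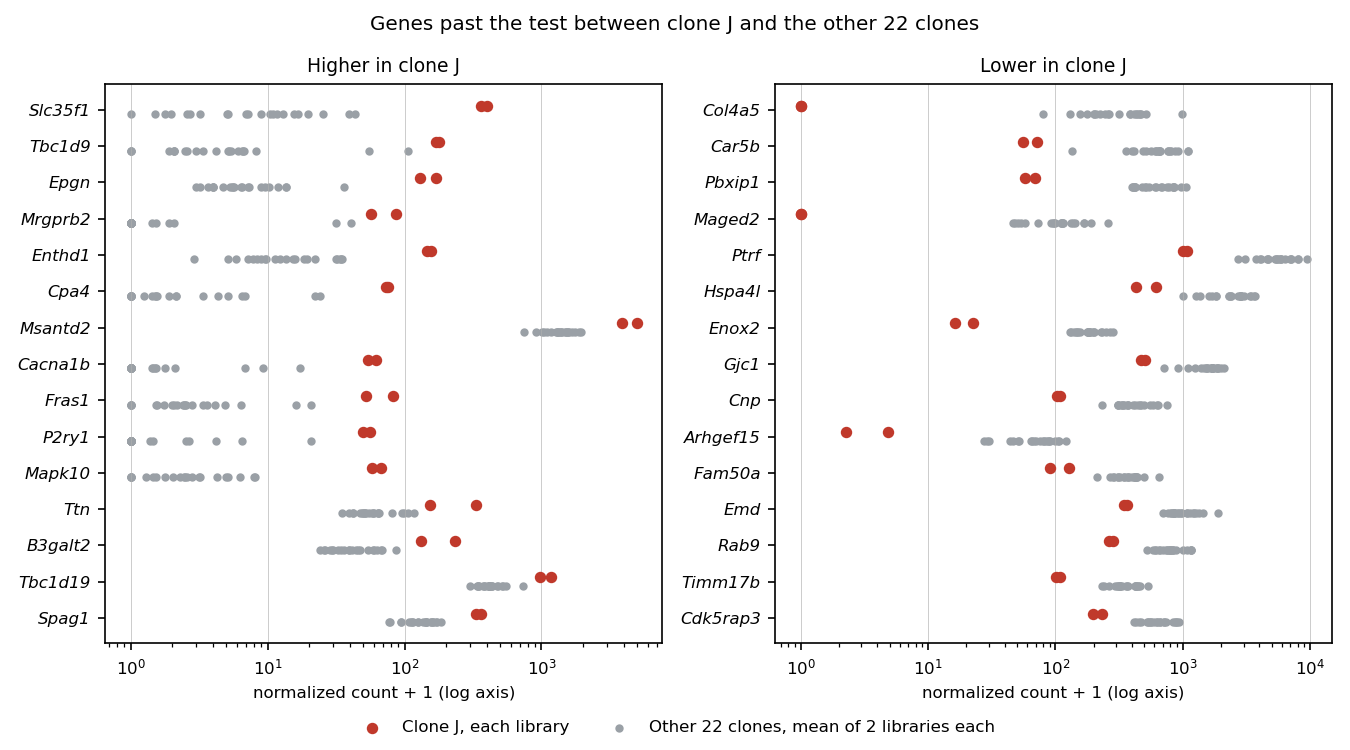
Normalized count plus 1 on a log axis for the 15 genes with the largest rise and the 15 with the largest fall in clone J, among those past the test. Red points are the 2 libraries of clone J and grey points the mean of 2 libraries in each of the other 22 clones; in every panel row the red points lie to 1 side of all grey points.

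Among the genes that rose, Slc35f1, on chromosome 10 at 52690501 to 53111622 of build GRCm38, had 402 and 363 normalized counts in J. In the other clones it ran from 0 to 42.5, with a median of 7.05. The difference was 3.10 ± 0.42 (SE) on the deposited log2 scale, with limma adjusted p = 0.00017. Both J libraries were far above the highest other clone, H, and Tumor_1, Tumor_2, Lung_1 and Lung_2 held between 4.34 and 23.6. Low genes are compressed on the deposited log2 scale, so such a difference understates the ratio of the counts. On the log2(normalized count + 1) scale Slc35f1 did not pass.

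Epgn, encoding the EGF receptor ligand epigen, lies on chromosome 5 at 91027517 to 91035212. It had 170 and 129 normalized counts in J, against 2.01 to 35.0 and a median of 5.02 in the others. All J values exceeded all others, and the difference from the mean of the other clones was 2.07 ± 0.25 (SE, limma adjusted p = 7e-05). Its neighbours amphiregulin (Areg) and betacellulin (Btc), further ligands of that receptor family, did not pass. Areg had 1829 and 1990 counts in J and a median of 700 in the others, with a highest value of 2692 in clone C. Epgn was 1 of 11 tested members of the EGF receptor list, whose median difference was 0.19, against -0.0076 over all genes tested.

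Msantd2, on chromosome 9 at 37487532 to 37526113, had 4961 and 3850 normalized counts in J, against 743 to 1935 and a median of 1380. It was the most abundant of the 15 named genes that rose, with a difference of 1.66 ± 0.32 (SE, limma adjusted p = 0.011). The highest other clone was K. Its neighbour Vsig2, which encodes an immunoglobulin-domain membrane protein, had 23.4 and 14.1 counts in J and at most 3.45 elsewhere. Vsig2 was called higher, but it met the filter through the J libraries alone, so its call adds no support. Esam, an adhesion molecule of endothelial cells and platelets that lies beside them, had 41.0 and 33.2 counts in J and at most 15.9 elsewhere, and its adjusted p was 0.055. It was the 1 endothelial marker of 2 tested to lie above all others. The 10 endothelial markers together summed to 78.1 and 70.3 counts in J, against 7.55 to 102 in the other clones, and Emcn, Vwf, Cldn5 and Erg had no read in J.

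Several genes that rose are close to silent in most clones. Mapk10, the neuronal JNK kinase, had 56.6 and 66.4 normalized counts in J and at most 7.07 elsewhere. Cacna1b, a subunit of a neuronal calcium channel, had 52.7 and 61.3, against a median of 0 and at most 16.3, in clone Q. P2ry1, a receptor for ADP, had 54.6 and 48.5, against a median of 0 and at most 19.8. Each lay above all 44 others, as did 3.77% of all genes. All 30 named genes lay outside all others, so this adds nothing to the call. A gene near silence elsewhere could pass the filter of 10 counts in 2 clone libraries through J alone.

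Fras1, a matrix protein of embryonic basement membranes, had 82.0 and 51.1 counts in J, against at most 19.9 elsewhere. Cpa4, a carboxypeptidase gene beside the imprinted gene Mest, had 74.2 and 72.8, against at most 23.0. Tbc1d9, a gene of the TBC family of Rab regulators, had 168 and 179, against a median of 2.78. Clone P, with 105, was next to J. Mrgprb2, a receptor best known from mast cells, had 85.9 and 56.2, against a median of 0 and at most 40.0 in clone A. Its close relative Mrgprb3 also passed, with 15.6 and 10.2 counts in J, and reads shared between such copies cannot be told apart. Of the remaining named genes that rose, Enthd1, Ttn, B3galt2, Tbc1d19 and Spag1, the lowest J library was 132 counts for B3galt2. Their differences ran from 1.12 for Spag1 to 1.78 for Enthd1. Ttn had 334 counts in J_A and 153 in J_B.

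Among the genes that fell, Col4a5 and Maged2 had no read in either J library. Col4a5 encodes the alpha 5 chain of type IV collagen and lies on chromosome X at 141475370 to 141689236. The other clones had 79.6 to 988 normalized counts, with a median of 289, and every other clone expressed it. Against a floor of 3 reads, equal to 2.32 normalized counts over the group, J was at least 124.6-fold lower than that median. The difference was -3.45 ± 0.63 (SE, limma adjusted p = 0.0067). Tumor_1, Tumor_2, Lung_1 and Lung_2 held between 444 and 507.

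Maged2, a MAGE family gene at 150806421 to 150814362 on chromosome X, had 45.6 to 256 counts in the others, with a median of 110. On the same floor J was at least 47.6-fold lower (limma adjusted p = 0.0093). A count of 0 does not show that a gene is off, only that J held under 3 reads. Col4a6, the neighbour of Col4a5 with which it starts back to back, had 0 and 2.55 counts in J and a median of 14.1 in the others, and did not pass. The basement membrane list held 1 gene that rose and 1 that fell among 15 tested. The gene that rose was Col4a4, for the alpha 4 chain that assembles with alpha 3 and alpha 5, at 44.9 and 23.0 counts in J and at most 12.6 elsewhere. Its call was lost in J_B alone.

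Ptrf, also named Cavin1, coats caveolae, small pits of the plasma membrane, and lies on chromosome 11 at 100956736 to 100970617. It had 1011 and 1083 normalized counts in J, against 2722 to 9399 and a median of 5505. Both J libraries lay below the lowest clone, U, by a wide gap, and the difference was -2.29 ± 0.43 (SE, limma adjusted p = 0.0087). The specimens from mice held 4006 to 4731, within the range of the other clones.

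Pbxip1, encoding a protein that binds PBX homeodomain factors, had 56.6 and 67.7 counts in J, against 402 to 1050 and a median of 612. The difference was -2.51 ± 0.41 (SE, limma adjusted p = 0.0018). It was 1 of 6 genes that fell and lie neither on chromosome 11 nor on X. Hspa4l, a heat shock protein of the Hsp110 family, was another, with 621 and 430, against 1009 to 3692.

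Further genes on X were Car5b, a mitochondrial carbonic anhydrase, Enox2, a cell-surface oxidase, Emd, the nuclear envelope protein emerin, Fam50a, the trafficking GTPase Rab9 and Timm17b, part of the inner mitochondrial membrane import machine. Car5b had 70.3 and 54.9 counts, against 134 to 1100. Enox2 had 21.5 and 15.3, against 128 to 283. Emd had 345 and 361, against 705 to 1888. On chromosome 11, Gjc1, encoding connexin 45, had 504 and 469, against 712 to 2113. Cnp, a phosphodiesterase known from myelin, had 101 and 109, against 231 to 752. Arhgef15 had 3.90 and 1.28, against 26.6 to 121, and Cdk5rap3 had 195 and 231, against 417 to 927.

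Of these 30 genes, 14 kept their call under each alternative in which they could be tested. They were Epgn, Msantd2, Cacna1b, Fras1, P2ry1, Mapk10, Tbc1d19, Col4a5, Car5b, Pbxip1, Maged2, Ptrf, Enox2 and Timm17b. Emd, Cdk5rap3, Hspa4l and Cnp lost theirs in 14 to 20 of 32 alternatives, leaving out 1 other clone among them. On the log2(normalized count + 1) scale 8 genes that rose did not pass, namely Slc35f1, Tbc1d9, Mrgprb2, Enthd1, Cpa4, Ttn, B3galt2 and Spag1. Without clones E and T, 10 of the 30 did not pass. In J_B alone Mrgprb2, Ttn, B3galt2, Fam50a, Emd and Cdk5rap3 did not pass. Of the 30, 13 overlap another annotated gene, among them B3galt2 with Cdc73, Spag1 with Polr2k and Cnp with Dnajc7, and the strand setting of the counting is not given in the sources used here.

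Chromosome by chromosome, clone J was lower along X and part of chromosome 11 and higher along chromosome 5. The median difference of 425 genes tested on X was -0.48 on the log2 scale, at -0.45 in J_A and -0.53 in J_B. The other clones ran from -0.20, in K, to 0.42, in G. At 125 of the 425 genes, or 29.4%, both J libraries lay below all 44 others, against 4.03% of all genes, and at 2 they lay above. Among 250 X genes with at least 200 counts, the median ratio of J to the mean of the others was 0.566. The other clones had ratios of 0.793 to 1.5, and 228 of the 250 genes were lower in J.

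The 25 X genes that fell carry varied roles. G6pdx, the first enzyme of the pentose phosphate pathway, had 1276 and 1204 counts in J, against 2170 to 4406. Its adjusted p was 0.048, and the call was lost in 17 alternatives. Prdx4, a peroxiredoxin of the endoplasmic reticulum, had 427 and 370, against 775 to 1668. Idh3g, a subunit of mitochondrial isocitrate dehydrogenase, had 841 and 812, against 1281 to 2230. Rps4x, a ribosomal protein, had 8776 and 7131, against 11032 to 24475. No J library reached the lowest clone in any of the 4 genes.

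**Figure D2:**
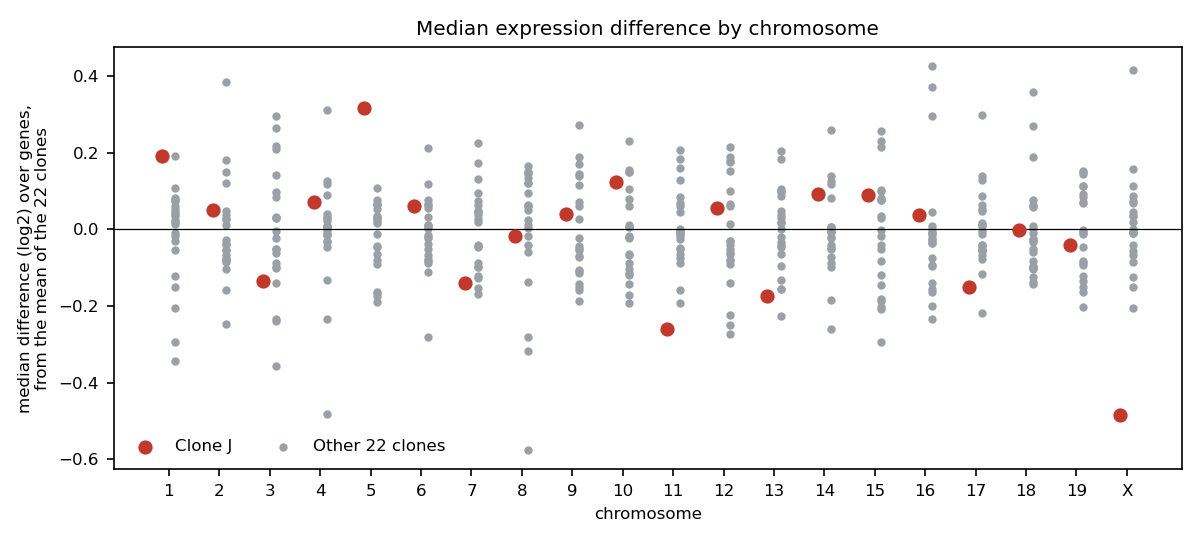
Median over the tested genes of each chromosome of the log2 difference from the mean of the other 22 clones. The red point is clone J, and the grey points are the other clones; J lies below all others on X (-0.48) and 11 (-0.26) and above all others on 5 (0.32), with 1 just above.

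On chromosome 5 the median over 850 genes was 0.32 in J, against -0.19 to 0.11 in the others. Both libraries of J lay above all others at 156 genes, or 18.4%, against 3.77% of all genes, and below at 7. The median ratio among 556 well expressed genes was 1.31, against 0.811 to 1.09. Orai1, the pore of the store-operated calcium channel, rose, with 349 and 464 counts in J, against 108 to 254. On chromosome 11 the median over 1120 genes was -0.26, against -0.19 to 0.21. There 138 genes lay below all others, or 12.3%, against 4.03% of all genes. The 15 genes that fell there include 14 between 80 and 110 Mb, and Trp53, at 1659 and 1815 counts in J, against 736 to 1444, lies outside that stretch and was above all others without passing the test. Chromosome 1 had a median of 0.193, just above the highest other clone, D, at 0.191.

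Windows of 10 Mb with at least 20 tested genes resolved these differences. All 12 such windows of chromosome 5 were above all other clones in J, at 0.19 to 0.57. On X, 9 of 10 were below all others. The exception lay at 90 to 100 Mb, where J had a median of 0.37 over 24 genes, against -0.51 to 0.83, and 0 of the 25 genes that fell on X started between 75 and 100 Mb. On chromosome 11 the windows from 80 to 110 Mb had medians of -0.35, -0.47 and -0.47. On chromosome 9 the 6 genes that rose, Vsig2 among them, all lie between 30 and 40 Mb. Vsig2 met the filter through J alone. The median of that window was 0.54 over 47 genes, against -0.41 to 0.29, while the whole of chromosome 9 had a median of 0.04. Chromosome 6 from 0 to 10 Mb also had 0.54, over 21 genes, against -0.34 to 0.25. Over all 216 windows of this size, J was above all others in 29 and below all others in 18.

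**Figure D3:**
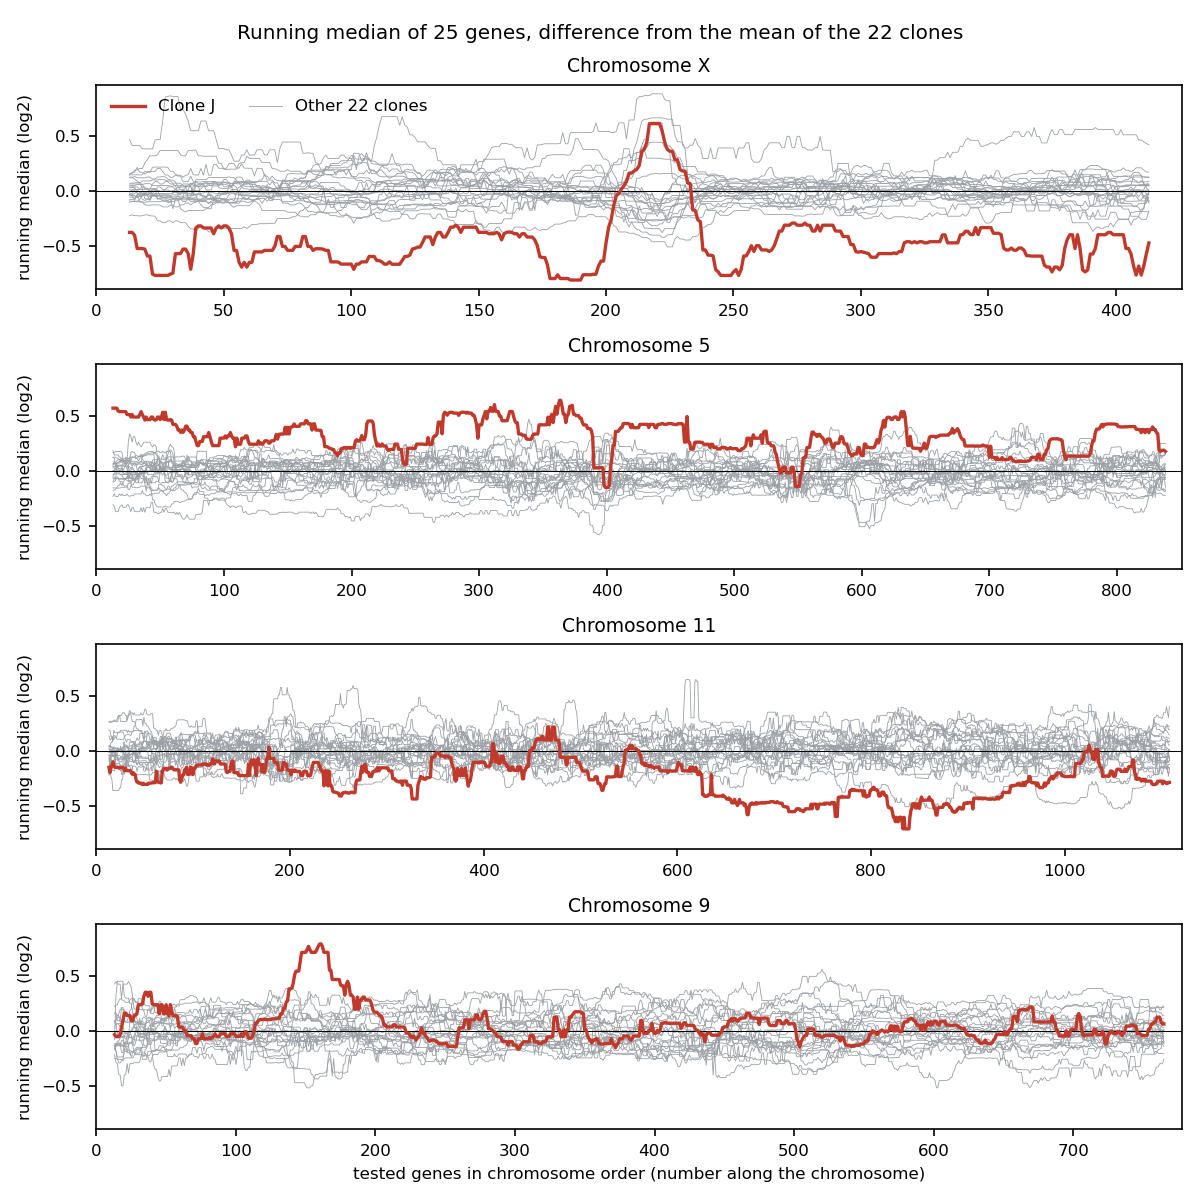
Running median over 25 consecutive tested genes of the log2 difference from the mean of the other 22 clones, along chromosomes X, 5, 11 and 9 in gene order, with clone J in red and each other clone in grey. J lies below all others at 352 of 401 points on X, where it also has a peak of 0.61, above all others at 628 of 826 on chromosome 5, below at 516 of 1096 on chromosome 11 and above at 60 of 753 on chromosome 9.

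No test was made by chromosome, since 1 clone against 22 allows only 23 placements in a permutation test over clones. Without the genes of chromosomes 5, 11 and X, the clone-level test called 29 genes higher and 4 lower, in an alternative chosen after the data were seen. Xist, the RNA of the silenced X chromosome, had 7.81 and 6.39 counts in J, against 0.874 to 7.83 and a median of 2.42 in the others. As 1 read equals 1.95 counts in J_A and 1.28 in J_B, these are a few reads near the floor. Only RNA was analysed here.

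Genes of MHC class I presentation were low in clone J as a group. The list had 16 tested members with a median difference of -1.01, against -0.0076 over all genes. The other clones had list medians of -0.69 to 0.98. Both J libraries lay below all 44 others at 8 of the 16, against 4.03% of all genes. In the library fit 15 of 16 were lower and 0 higher, against 29% lower over all genes. None of the 16 passed the test between clones. These are bulk libraries, in which fewer cells with a transcript and less of it per cell cannot be told apart.

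Among them are the catalytic subunits that turn the standard proteasome into the immunoproteasome. Psmb8, on chromosome 17 at 34198195 to 34201454, had 41.0 and 33.2 normalized counts in J, against 59.4 to 2461 and a median of 626. The difference was -2.86 ± 1.08 (SE, limma adjusted p = 0.22), and clone H was next to J. Psmb9 had 15.6 and 10.2, against 29.9 to 1964 and a median of 324. Psmb10 had 181 and 156, against 283 to 942. All 3 subunits lay below every other clone.

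The proteasome activator subunit Psme2 had 117 and 105 counts, against 158 to 630. The peptide transporter gene Tap1 had 17.6 and 25.5, against a median of 118. Its partner Tap2 had 42.9 and 42.2, against a median of 147. Tap1 and Tap2 came within the spread of the 44 libraries. Tapbp, which tethers class I molecules to the transporter, had 511 and 501, against 1039 to 5363. Its J values were under the lowest clone, I.

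Among the class I chains, H2-D1 had 4350 and 5150 counts in J, against 6013 to 16957 and a median of 8937. H2-T23, a nonclassical class I gene, had 93.7 and 106, against 216 to 2219. H2-K1 had 2949 and 3352, against 3227 to 10472, and B2m, their light chain, had 10876 and 10448, against 9703 to 29369. So H2-D1 and H2-T23 lay below all others, while H2-K1 and B2m overlapped them. H2 genes are near-identical copies, and reads may be split among them. Nlrc5, the transactivator of class I genes, had 48.8 and 25.5, against 67.8 to 888 and a median of 378, and was below all others. The chaperone Calr, the list's 1 member with a positive difference, had 6237 and 6957, against a median of 6093.

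**Figure D4:**
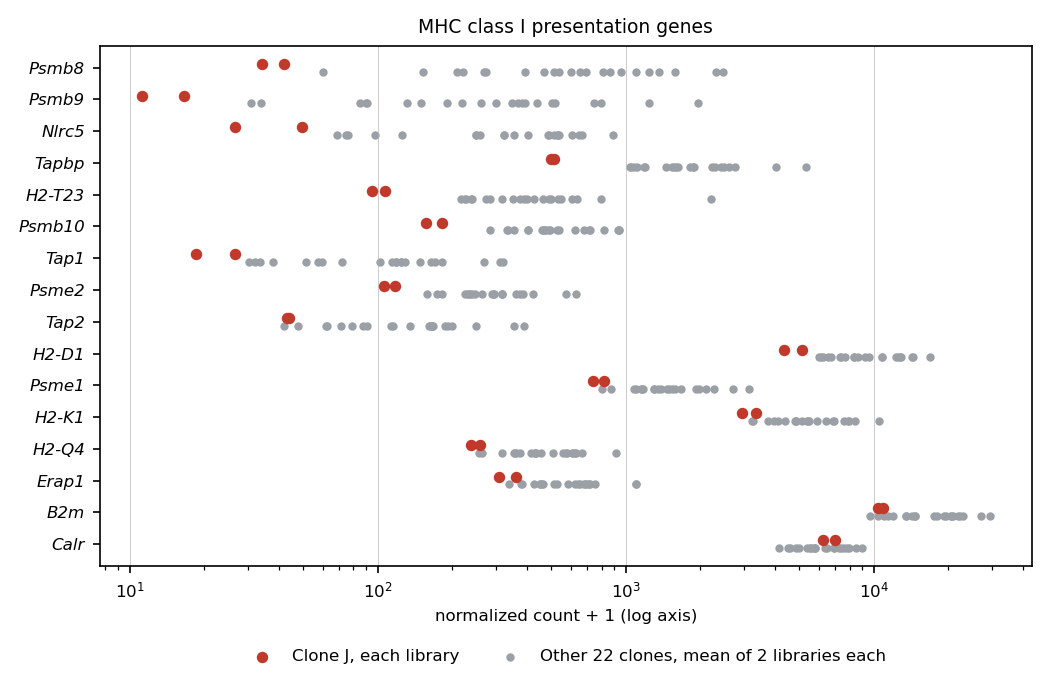
Normalized count plus 1 on a log axis for the 16 tested genes of MHC class I presentation, ordered by their difference, with the 2 libraries of clone J in red and the means of the other 22 clones in grey. Psmb8, Psmb9, Nlrc5, Tapbp, H2-T23, Psmb10, Psme2 and H2-D1 have both red points left of all grey ones.

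The interferon response list was low too. Its 30 tested members had a median difference of -0.62, against -0.67 to 3.87 in the other clones, and 5 lay below all 44 others, against 4.03% of all genes. Clones H (-0.67) and I (-0.67) had a lower list median than J, and H alone had a lower mean level. Gbp2, a guanylate-binding GTPase, had 21.5 and 11.5 counts in J, against 47.2 to 3029 and a median of 122. Oas1a, which makes the second messenger of RNase L, had 3.90 and 2.55, against 16 to 2273. The transcription factor Irf1 had 369 and 478, against 621 to 1883. Ifit2 and Ifi35 were the other 2 below all others, and clone G, the highest for each of the 5, sets the upper end of these ranges. None passed the test between clones.

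The stretches below show what the promoters of such genes carry, as RefSeq sequence of GRCm38.p6, each 60 bases taken from the 250 before an annotated start. A pair of motifs was searched on both strands in the 250 bases before each start, the interferon-stimulated response element (GAAA, any 2 bases, GAAA) and the gamma-activated site TTCNNNGAA. Capitals mark the match, which on the other strand reads as TTTC, any 2 bases, TTTC for the first motif.
Psmb8 (gamma-activated site, chr17:34198073-34198132, + strand): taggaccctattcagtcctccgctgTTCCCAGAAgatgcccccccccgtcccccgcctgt
H2-T23 (response element, chr17:36032791-36032850, - strand): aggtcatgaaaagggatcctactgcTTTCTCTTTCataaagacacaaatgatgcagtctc
Gbp2 (response element, chr3:142620579-142620638, + strand): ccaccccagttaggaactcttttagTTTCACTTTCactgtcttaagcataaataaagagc
Irf1 (gamma-activated site, chr11:53769899-53769958, + strand): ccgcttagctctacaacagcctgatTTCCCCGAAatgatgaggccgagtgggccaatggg
Oas1a (response element, chr5:120907526-120907585, - strand): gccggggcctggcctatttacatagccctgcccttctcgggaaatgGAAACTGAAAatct
The response element was in 2.98% of 32851 promoters and the gamma-activated site in 7.02%. Of 14 MHC class I genes with a promoter in the table, 2 held the first motif, B2m and H2-T23, and 1 the second, Psmb8. Of 22 interferon genes with a promoter, 10 held the first and 4 the second. Oas1a holds a further response element that overlaps the one shown. A match is a description of the letters, and no binding was measured.

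Across 36 lists with at least 8 tested members, the median of clone J was above that of all other clones for 1, imprinted genes, and below all others for 5. The 5 were MHC class I presentation, chemokines, NRF2 and glutathione, S100 proteins and annexins, and the growth factor receptor list. For S100 proteins and annexins this place rests on J_B, since the median was -0.28 in J and -0.15 in J_A alone, against a lowest other clone of -0.26. Over all 45 lists the test between clones called 4 members among 721 tested entries, against 0.726% of all genes, with Epgn and Col4a4 as higher and Col4a5 and G6pdx as lower. The 30 proliferation genes had a median of -0.10 in J, against -0.16 to 0.13 in the other clones. The 25 nuclear-encoded genes of oxidative phosphorylation had a median of -0.14, against -0.30 to 0.26, so both lists lay within the range of the other clones.

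**Figure D5:**
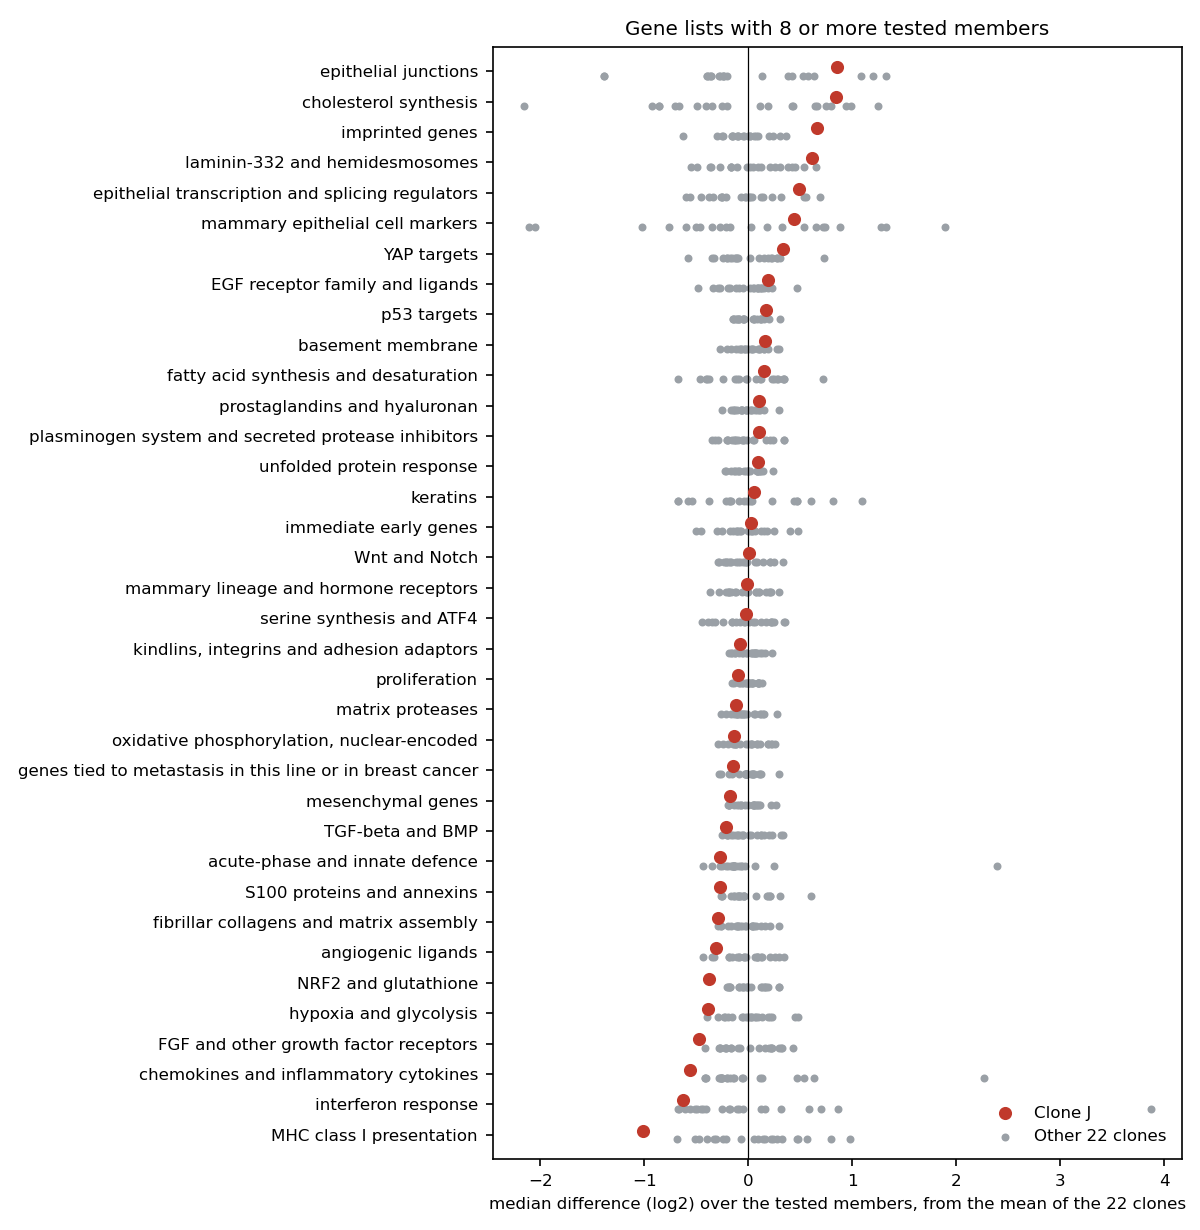
Median log2 difference from the mean of the other 22 clones over the tested members of each gene list with at least 8 of them, with clone J in red and the other clones in grey. Clone J has the lowest value of all clones for MHC class I presentation (-1.01) and chemokines (-0.57) and the highest for imprinted genes (0.66).

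Chemokines and inflammatory cytokines had a median difference of -0.57 over 24 tested members, against -0.42 to 2.27 in the other clones. In the library fit 16 were lower and 4 higher, against 29% and 27% of all genes. Ccl5, which draws T cells and monocytes, had 19.5 and 19.2 counts in J, against 23.9 to 547 and a median of 164, and was the list's 1 member below all others. Cxcl5, a neutrophil attractant, had 95.6 and 116, against 91.9 to 34278. Tslp had 189 and 134, against a median of 1069. None passed the test between clones.

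Epithelial junction genes were high in J, but other clones reached the same levels, and keratins did not follow. The 25 junction genes had a median difference of 0.85, against -1.39 to 1.32 in the other clones, and 3 clones had a higher mean level. In the library fit 20 of 25 were higher, against 27% of all genes. Epcam had 10548 and 12001 counts in J and a median of 2439 elsewhere, with 16782 in clone A. Cldn4 had 1380 and 1519, against a median of 126, and the E-cadherin gene Cdh1 had 15774 and 16958, against a median of 8648. No junction gene lay outside all others. The 10 tested keratins had a median of 0.05, against -0.68 to 1.09, with 3 higher and 2 lower in the library fit and 8 clones above J in mean level. Krt14, a basal keratin, had 199 and 280 counts in J, with clone P at 3908, and Krt5, Krt6a, Krt6b and Krt23 had no read in J.

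The regulators of the epithelial state had about the same mean level in J, at 8.53 on the log2 scale, as in clones A and L, both at 8.51. The list's median was 0.48, against -0.60 to 0.69, with clones L (0.69), H (0.56) and A (0.54) above J. In the library fit 10 of 19 were higher, against 27% of all genes. Esrp1, which sets epithelial splicing, had 4928 and 4981 counts in J and a median of 56.3 elsewhere, while clone A reached 4716. Its difference was 4.45 ± 2.18 (SE, limma adjusted p = 0.37). Grhl2, a transcription factor of epithelial barriers, had 2139 and 2123, against 120 to 1788. Foxa1, a pioneer factor of luminal mammary cells, had 121 and 134, against 8.12 to 76.5. Grhl2 and Foxa1 lay above all others, 2 of 19 tested members, against 3.77% of all genes.

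Among hemidesmosome genes, the laminin chain genes Lama3 and Lamb3 were high in J. Lama3 had 2824 and 2650 counts in J, against 2.85 to 1961. Lamb3 had 2518 and 2942, against 3.40 to 2048. Both lay above all others, 2 of 9 tested members, against 3.77% of all genes. Neither passed the test between clones.

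Among 27 tested adhesion genes, 2 lay above and 2 below all others, against 3.77% and 4.03% of all genes. The list's median difference was -0.08. Fermt1, encoding kindlin-1, an integrin activator of epithelia, had 6229 and 6693 counts in J, against 9.05 to 4319. Itga2, of the collagen receptor, had 3620 and 3405, against 108 to 3066. Both lay above all others. Tns4, a tensin without an actin-binding domain, had 703 and 519, against 1871 to 32439 and a median of 8488, and Itga3, of the laminin receptor, had 7545 and 8542, against 9402 to 20314. Tns4 had an adjusted p of 0.069 and passed in 6 of 32 alternatives, at 0.033 to 0.101 over all of them. Tns4 and Itga3 lie on chromosome 11 between 90 and 100 Mb.

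Among mesenchymal genes, S100a4, Vim and Zeb2 were lower in J than in most other clones. S100a4, a calcium-binding protein tied to motility, had 2656 and 2159 counts, against 4083 to 61236 and a median of 31937. The difference was -3.46 ± 0.91 (SE, limma adjusted p = 0.072). Over 32 alternatives that p ran from 0.0147 to 0.116. It passed in 2 of them, without clone A and without clone L. Vim, the vimentin gene, had 10421 and 8711, against 6443 to 77124 and a median of 52466. Zeb2 had 582 and 460, against 582 to 3234. Clone A was the lowest other clone for all 3 of these genes. The list's median was -0.17, and 6 of 17 members were higher and 6 lower in the library fit, against 27% and 29% of all genes.

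S100a4, S100a6, S100a1 and S100a13 lay below all others, 4 of 18 tested members of the S100 and annexin list, against 4.03% of all genes. S100a6 had 17716 and 18125 counts in J, against 29896 to 108056. S100a1 had 46.8 and 54.9, against 96.7 to 452. They sit together on chromosome 3, where no window of 10 Mb was outside the other clones.

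Imprinted genes, expressed from 1 parental copy, had a median difference of 0.66 over 12 tested members, against -0.62 to 0.36. Igf2r, which clears IGF2, had 8294 and 8666 counts in J, against 2562 to 7519. Mest had 574 and 490, against 37.6 to 405. Phlda2 had 945 and 1192, against 82.3 to 819. Ppp1r9a had 2270 and 1763, against 346 to 1486. These 4 lay above all others, against 3.77% of all genes. Ppp1r9a lies in the window of chromosome 6 at 0 to 10 Mb, and Mest beside Cpa4. In J_B alone the list's median was 0.43.

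Of metabolic lists, hypoxia and glycolysis had a median of -0.38 over 30 genes, against -0.40 to 0.48, with 22 lower and 4 higher in the library fit, against 29% and 27% of all genes. Bnip3, a mitophagy receptor induced by hypoxia, had 78.1 and 79.2 counts in J, against 102 to 1273 and a median of 696. Pgk1, on X, had 3158 and 3375, against 5329 to 15088. Aldoc had 13.7 and 17.9, against 39.8 to 422, and Gpi1 had 1774 and 1931, against 2193 to 3902. The 4 genes lay below all others, as did 4.03% of all genes. In contrast Pfkfb3, which drives glycolytic flux, had 1027 and 1050, against a median of 244, with clone G at 1746.

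NRF2 and glutathione genes had a median of -0.38 over 24 genes, against -0.20 to 0.30 in the other clones. Its 1 called gene was G6pdx, which fell. Cholesterol synthesis genes had a median of 0.84 over 23 genes, against -2.16 to 1.24. Cyp51, a demethylase of that pathway, had 13515 and 13889 counts in J, with clone L at 13649. Ebp, a sterol isomerase on X, went the other way, with 123 and 146, against 280 to 838 (limma adjusted p = 0.058). It passed in 7 of 32 alternatives.

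Single genes of the signalling and mammary lineage lists lay outside all others. In the Wnt and Notch list it was 1 above and 1 below of 22 tested. In the growth factor receptor list and in the mammary lineage list it was 1 below of 14 tested each. Over all genes the shares were 3.77% above and 4.03% below, so 1 gene in lists of this size does not set them apart. Igfbp4, a binding protein for IGFs on chromosome 11, had 3283 and 3652 counts in J, against 4740 to 24500. Jag1, a Notch ligand, had 3741 and 3861, against 46.7 to 2676 and a median of 489. Wnt10b, a Wnt ligand, had no read in J, against 1.18 in clone L to 147 in clone B. Clone L lies under the floor of 2.32 counts for J, so J and L cannot be told apart. Stat5a, a mediator of prolactin signalling, on chromosome 11, had 42.9 and 34.5, against 72.9 to 493. Igfbp4, Jag1 and Stat5a lay outside all others without passing the test, as did Wnt10b by read counts alone. Sdc1, the syndecan of epithelia, had 7447 and 9721, against 2104 to 6612, and did not pass the test either.

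The genes that the study picked, Serpine2 and Slpi, encode secreted protease inhibitors. Slpi had 35.1 and 21.7 counts in J, against 26.7 to 10949 and a median of 1714. Serpine2 had 410 and 364, against 19 to 9030 and a median of 1580. Clone L was the lowest other clone for both genes, and J overlapped the others in each. Differences of -3.94 ± 2.25 for Slpi and -1.5 ± 1.99 for Serpine2 (SE) did not pass (limma adjusted p = 0.45 and 0.77). In Tumor_1 and Tumor_2 Slpi had 4852 and 3815 counts, and in Lung_1 and Lung_2 17238 and 21405.

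Col4a5 and Maged2, without a read in J, were present in the specimens from mice. Maged2 had 87.9 and 70.3 counts in Tumor_1 and Tumor_2 and 149 and 176 in Lung_1 and Lung_2. Of genes that rose in J, Mrgprb2 had 0.925 and 1.65 in the tumors and 0 in both lungs, and P2ry1 had between 1.65 and 4.13. Cpa4 had 17.5 and 15.7 in the tumors and 1.80 and 1.66 in the lungs. Nothing in the labels tells if the tumor cells were sorted away from host tissue in these specimens.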

How the data were processed

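RNA was measured in 46 libraries of 23 clones and 8 of tumors and lung metastases. Per the labels' protocols, column-purified, DNase-treated RNA was amplified with a NuGEN kit and sequenced. The submitters' processing notes name build mm10 and the tools DESeq, HTSeq and Bowtie2. Their versions and the strand setting were not found in the labels.

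The authors deposited log2 values of 23481 genes. Judged from the values, the scale is that of a variance-stabilising transformation, with no read at 5.03. Inverting it gave normalized counts, and 100% of values were then whole reads within 0.01. Of these rows, 27 hold dates in place of symbols and are not named. There were 0 columns without a sample.

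Genes with at least 10 normalized counts in 2 clone libraries were tested, 13637 in all. The 2 libraries of clone J could meet this alone, as they did for Vsig2. Tests used limma 3.58.1 in R 4.3.3 with a variance trend, on 1 value per clone or over the 46 libraries. No count model was used, since the table is on a log2 scale. In data simulated for the clone-level comparison over 13637 genes, 18% of genes changed 2-fold and 78% of those changed 4-fold were called. Of unchanged genes 0.141% were called, or 19, beside 9, 39, 43 and 45 of 50 genes changed 2-, 4-, 8- and 16-fold. These 19 false calls are a larger share of all calls in the simulation than the adjusted p cutoff allows. The genes called in clone J may therefore hold more false calls than that cutoff implies. Clone effects were drawn independently for each gene, and only genes with a mean of at least 50 counts were changed. Shifts of whole chromosomes and changes in genes near silence were not simulated.

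RefSeq positions on GRCm38.p6 matched 13561 of the genes. Named genes are the 15 largest called changes each way at 50 counts or more, and in each of 45 lists the called members, or else up to 3 with the largest difference, plus Serpine2, Slpi and the mammary markers. Other genes given here were chosen after their values were seen, namely members of the lists that lay outside all other clones, further called genes on the chromosomes described, and Calr, H2-K1, B2m, Tap1, Tap2, Btc, Col4a6, Vsig2, Mrgprb3 and Xist. The members and lists were chosen with earlier results of these data known. Lists and chromosomes were described with no test. Some items are not reported here.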

Additional observations from a re-analysis of the deposited data

How the results depend on the processing

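Under the alternatives tried, the counts from the library fit and from the pairwise contrasts stayed within 1.5 times of those reported. The clone-level test moved more. It called 25 higher genes on the log2(normalized count + 1) scale and 25 with a filter of 50 counts, 352 higher and 84 lower with no filter, and 30 lower without clones E and T. In J_A alone it called 174 higher and 113 lower. Genes above all others numbered 787 in J_B alone and 998 in J_A alone, and genes below numbered 799 in J_B and 907 in J_A. On means of the 2 libraries of each clone they were 1330 and 1262. Without chromosomes 5, 11 and X, which was tried after the data were seen, 29 genes were higher and 4 lower, and 279 lay below all others. The cause of these shifts was not tested.

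Leaving out 1 other clone gave 49 to 67 higher and 37 to 61 lower genes in the clone-level test, 3611 to 3782 and 3896 to 4065 in the library fit, and 514 to 584 above and 549 to 616 below all others. On the log2(normalized count + 1) scale, medians moved to -0.73 for X and 0.42 for chromosome 5, to -1.26 for interferon response, -0.93 for chemokines, -1.45 for MHC class I presentation and -0.60 for hypoxia and glycolysis, and to -0.58 for fibrillar collagens, 0.23 for prostaglandins and hyaluronan, -0.68 for S100 proteins and annexins, -0.81 for leukocyte, 0.93 for fibroblast and 1.63 for endothelial markers. Quantile normalization gave -0.18 for proliferation genes, and imprinted genes had 0.43 in J_B alone and 0.67 in J_A alone. Near-zero differences changed sign. Krt8 was 0.042 after recentring, 0.11 in J_B alone and -0.16 in J_A alone. Krt18 was 0.093 in J_B alone, -0.024 in J_A alone, -0.025 without clone G and -0.006 without clone K, and Acta1 was 0.13 in J_B alone and -0.0014 in J_A alone.

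No A minus B difference common to all clones was seen, though some pairs of clones shared one. The A minus B differences of 253 pairs of clones correlated at -0.502 to 0.637, with a median of 0.0802, and with the letter as a replicate block the library fit called 3778 higher and 4077 lower genes, and 3024 and 3175 by the pairwise rule. Depth limits low genes, since J_A is the shallowest clone library.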

Other observations

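Among YAP targets, Ctgf had 6432 and 6943 normalized counts in clone J, with a median of 981 in the other clones and 9515 in clone L, and Cyr61 had 4980 and 5330, against a median of 1588. Both encode matricellular proteins. The list's median was 0.33 over 18 genes, against -0.58 to 0.73 in the other clones. The metalloprotease genes Adam12 and Adamts1 had 1961 and 1956 and 6430 and 7075 counts in J, with medians of 243 and 1215 elsewhere. Adamts9, another secreted protease, had 0 and 5.11 counts in J, against 18.5 to 1308, and was the list's 1 member below all others. Has2, which makes hyaluronan, had 8310 and 7447, against a median of 2639, and Ptges, of prostaglandin E2 synthesis, had 17.6 and 7.66, against a median of 425. None of these passed the test between clones, and apart from Adamts9 none lay outside all 44 other libraries.

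Of collagen VI genes, Col6a1 had 13.7 and 5.11 counts in J, against 8.30 to 1380 and a median of 535, and Col6a2 had 1.95 and 0 counts, against 0 to 141. Clone L was the lowest other clone for Col6a1, and Col6a2 had no read in clones A, G and L. The activin subunit gene Inhba had 5578 and 7153, against 137 to 9977, and the TGF-beta co-receptor gene Tgfbr3 had 25.4 and 17.9, against a median of 308. The serpin genes Serpinb5 and Serpinb2 had 570 and 506 and 283 and 212 counts in J, with highest values of 605 in clone L and 386 in clone G, and neither lay above all other clones. Lcp1, an actin bundler listed as a leukocyte marker, had 6875 and 6665, with a median of 2120 in the other clones and a highest clone mean of 6191, in M, while the leukocyte markers Cd52, Cd48 and Cd53 had no read in J. The 9 leukocyte markers summed to 7225 and 7098 in J, against 1403 to 6918, most of it Lcp1, and their part in other results was not tested. None of the genes in this paragraph passed the test between clones.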
